A study of Arabidopsis thaliana with 22 samples.

Results

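The genes described here are WRKY6, WRKY22, WRKY53, STZ, PUB22, PUB23 and PUB24, a set of 3 WRKY transcription factors, 1 zinc-finger repressor and 3 U-box ubiquitin ligases of Arabidopsis thaliana. They were chosen by symbol, as the probe sets that the platform annotation assigns to exactly 1 gene of this list. The list was drawn up with earlier results of these data known. Each of the 7 genes was found on 1 probe set, out of 13350 genes on probe sets with a single annotated gene. Transcripts were measured in root RNA of 10-day-old Col-0 plants on 22 arrays in 11 groups of 2, which the labels tell apart by the letters A and B. Plants of 10 groups had been moved to MGRL agar medium, a mineral plant medium, that held either 1500 uM sulfate (replete) or 0 uM sulfate (sulfate-free), and roots were taken 2, 4, 8, 12 or 24 h later. The last group, titled as replete at 0 h and described as having no treatment, is called untreated. All groups share the accession Col-0, the plant age and the tissue, and no group stayed untransferred at a later hour, so the act of transfer, the fresh medium and the hour of sampling cannot be told apart in any comparison with untreated roots. The labels do not tell whether the A and B arrays of a group stem from separate plant cultures. The p-values therefore reflect the spread between these particular samples alone, and that spread may be technical.

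The genes belong to the early arm of stress and immune signalling in plants. When a receptor on the cell surface senses a microbial molecule or a damage signal, calcium influx, an oxidative burst and mitogen-activated protein kinase cascades follow, and a first wave of transcription factor genes is transcribed within minutes to hours. WRKY proteins bind the W box in target promoters. WRKY22 acts downstream of a flagellin-activated kinase cascade, WRKY53 is a regulator of leaf senescence, and WRKY6 is a factor of senescence and defence that also takes part in phosphate and boron nutrition. STZ, also named ZAT10, is a C2H2 zinc-finger protein with a repressor motif, and its transcript is known to respond to salt, cold, drought and reactive oxygen. PUB22, PUB23 and PUB24 are closely related U-box E3 ligases that dampen immune responses. PUB22 targets the exocyst subunit EXO70B2 for degradation, and PUB22 and PUB23 also act in the drought response.

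The probe sets were 264746_at for WRKY6 (AT1G62300), 255568_at for WRKY22 (AT4G01250), 254231_at for WRKY53 (AT4G23810), 261648_at for STZ (AT1G27730), 252045_at for PUB22 (AT3G52450), 263935_at for PUB23 (AT2G35930) and 258787_at for PUB24 (AT3G11840). Values are the authors' MAS5 signals, linear intensities that summarise all probes of a probe set. Signals of different probe sets were not compared with each other, since probes differ in brightness. Differences are given on the log2(signal + 11) scale, which understates the change of a dim probe set, and were tested with limma over all 13648 probe sets that passed a filter on low values, with a Benjamini-Hochberg adjusted p below 0.05 as the threshold. WRKY53, with a mean signal of 18.3, fell under the filter, which lay at a signal of about 27.0, and was tested only in a fit without the filter. The other 6 genes passed it. The arrays were close in overall brightness, with median signals from 42.5 to 46.1, and the number of arrays limits the precision.

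**Figure D1:**
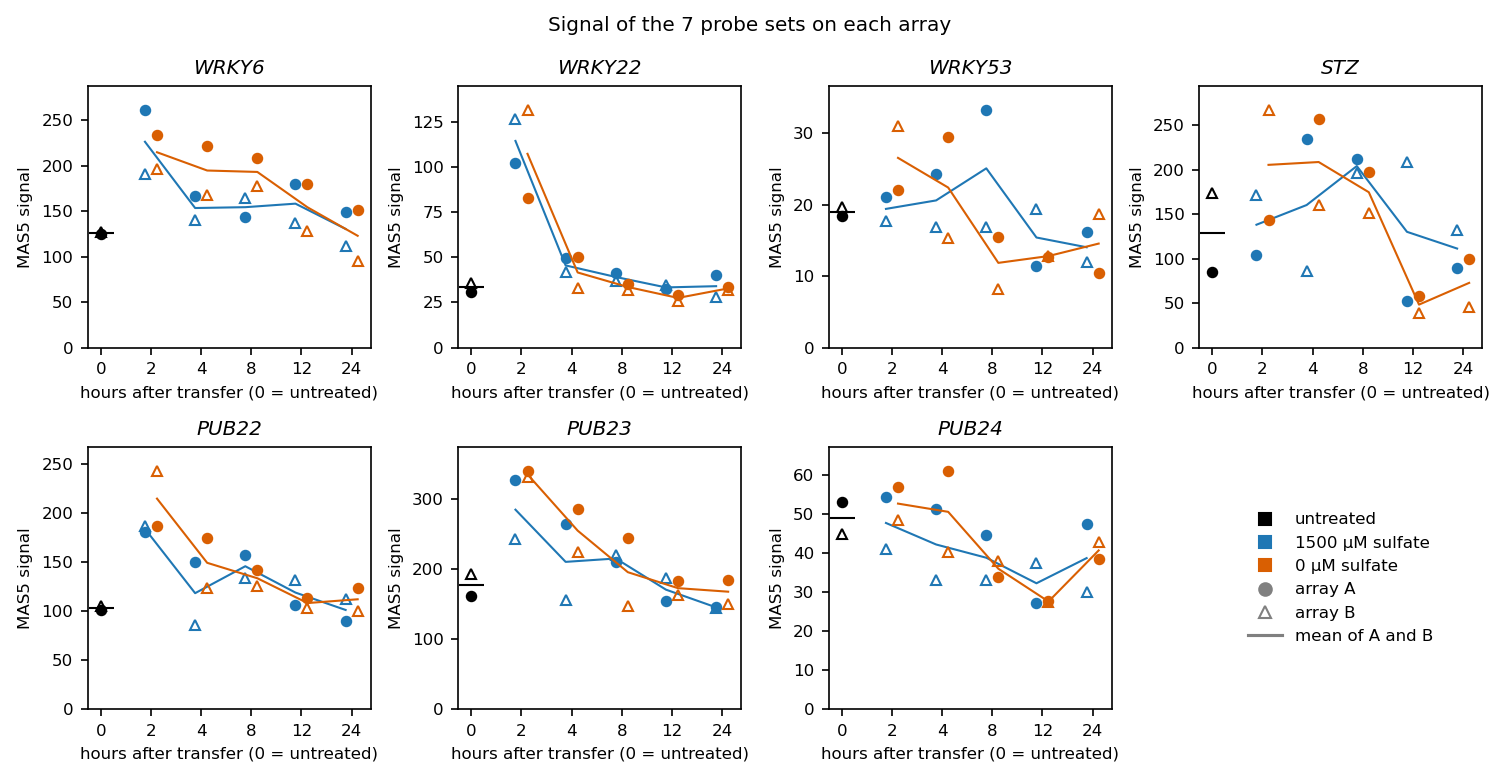
MAS5 signal of each gene on each of the 22 arrays, against hours after transfer. Circles and triangles are the A and B arrays, black is untreated, blue 1500 uM and orange 0 uM sulfate, and lines join the means of the A and B arrays. WRKY22 at 2 h stands between 82.8 and 132 on its 4 arrays, while its other 18 arrays stay at or below 49.9.

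Transfer to fresh agar was followed within 2 h by higher transcript levels of WRKY22, PUB22, WRKY6 and PUB23. These 4 of the 6 tested genes rose against untreated roots with both media pooled, and 3.76% of all tested probe sets rose in that comparison. The median log2 difference of the 6 genes was 0.75, beside -0.03 for all probe sets tested. Since the genes were chosen with earlier results of these data known, this count and median only describe them. STZ and PUB24 did not pass the test, and neither did WRKY53 in the fit without the filter.

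WRKY22, the factor downstream of the flagellin kinase cascade, changed most. Its signal was 30.8 and 35.8 on the untreated arrays, 102 and 126 on the replete arrays at 2 h, and 82.8 and 132 on the sulfate-free arrays at 2 h. All 4 arrays at 2 h were above every other array of the series, and the groups did not overlap. The log2 difference was 1.44 ± 0.17 (SE, 4 arrays against 2, adjusted p = 4.07e-05), a 2.72-fold rise on the scale used. The rise passed the test in each medium taken alone, at 1.50 ± 0.20 in replete medium (adjusted p = 0.000207) and 1.39 ± 0.20 in sulfate-free medium (adjusted p = 0.000367).

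By 4 h WRKY22 had fallen most of the way back to its untreated level. The replete arrays then gave 49.3 and 41.6 and the sulfate-free arrays 49.9 and 33.2. Of these 4 arrays 3 were above both untreated arrays, and the log2 difference from untreated roots was 0.29 ± 0.17 (SE, adjusted p = 0.495). Between 2 and 4 h the log2 level of WRKY22 dropped by 1.15 ± 0.14 (SE, adjusted p = 0.000206). This was 1 fall among the 6 tested genes, in a step in which 1.23% of all probe sets fell. From 8 h on its signals lay between 25.9 and 41.2, a range that covers both untreated arrays. The mean of the 4 arrays was 36.3 ± 4.0 (SD) at 8 h, 30.4 ± 3.7 at 12 h and 33.3 ± 5.1 at 24 h.

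WRKY6, the factor linked to senescence, defence and phosphate supply, had untreated signals of 124 and 127. At 2 h the replete arrays read 261 and 191 and the sulfate-free arrays 233 and 196, so all 4 exceeded both untreated arrays. The log2 difference was 0.75 ± 0.19 (SE, adjusted p = 0.0292). In single media it missed the threshold, at 0.78 ± 0.22 in replete (adjusted p = 0.0742) and 0.72 ± 0.22 in sulfate-free medium (adjusted p = 0.0917). The call was lost without any 1 of 4 arrays: the adjusted p became 0.0762 without the sulfate-free A array at 2 h, 0.0927 without the replete A array at 2 h, and 0.232 or 0.141 without the untreated A or B array.

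At later times the WRKY6 signals were nearer the untreated ones. At 4 h it was 167 and 140.0 in replete and 221 and 168 in sulfate-free medium, and at 8 h it was 144 and 165 in replete and 208 and 178 in sulfate-free medium. At 12 h the replete arrays gave 179 and 137 and the sulfate-free arrays 179.8 and 128. Every transferred array from 2 to 12 h was thus above both untreated arrays, but the differences were 0.42 ± 0.19 at 4 h (adjusted p = 0.328), 0.42 ± 0.19 at 8 h (adjusted p = 0.225) and 0.27 ± 0.19 at 12 h (adjusted p = 0.376). At 24 h the signals of 149 and 112 in replete and 151 and 94.9 in sulfate-free medium lay on both sides of the untreated arrays.

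WRKY53, the senescence regulator, stayed dim throughout. Its signals ran from 8.18 on a sulfate-free array at 8 h to 33.3 on a replete array at 8 h, with 18.4 and 19.7 on the untreated arrays. At 2 h it read 21.1 and 17.7 in replete and 22.1 and 31.0 in sulfate-free medium, on both sides of the untreated values. Without the filter its difference at 2 h was 0.16 ± 0.23 (SE, adjusted p = 0.866). At this brightness a change of WRKY53 was hard to detect with these arrays.

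The ligase PUB22, which marks EXO70B2 for degradation, had the tightest untreated values of the U-box genes, 101 and 106. At 2 h it read 180.3 and 187 in replete and 187 and 242 in sulfate-free medium. All 4 arrays were above every other array of the series, the next being 175. The log2 difference from untreated roots was 0.87 ± 0.18 (SE, adjusted p = 0.00748), or 1.83-fold. In sulfate-free medium alone it was 0.97 ± 0.21 (adjusted p = 0.0123) and in replete medium alone 0.77 ± 0.21 (adjusted p = 0.0602). Without the untreated A array the adjusted p was 0.105 and without the untreated B array 0.0579, with differences of 0.84 and 0.90.

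Later PUB22 signals were lower and more scattered. They were 150.1 and 86.1 in replete and 175 and 124 in sulfate-free medium at 4 h, and 157 and 134 in replete and 141 and 125 in sulfate-free medium at 8 h. At 12 h the arrays read 106 and 131 in replete and 113 and 103 in sulfate-free medium, and at 24 h 90.1 and 112 in replete and 124 and 99.9 in sulfate-free medium. The step from 2 to 4 h was -0.57 ± 0.15 (SE, adjusted p = 0.0657), and it passed the threshold when the sulfate-free A array at 4 h (adjusted p = 0.0391) or the replete A array at 4 h (adjusted p = 0.00756) was left out.

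PUB23, the close relative of PUB22, moved in much the same way with wider scatter. The untreated arrays gave 161 and 193, the replete arrays at 2 h 326 and 242, and the sulfate-free arrays at 2 h 339 and 330.2. The 4 arrays at 2 h were above both untreated arrays, but 1 of them lay below the highest arrays of 4 and 8 h. The log2 difference was 0.76 ± 0.20 (SE, adjusted p = 0.0332), with 0.88 ± 0.23 (adjusted p = 0.0395) in sulfate-free and 0.64 ± 0.23 (adjusted p = 0.19) in replete medium. The call was lost without any 1 of 5 arrays: the adjusted p was 0.0657 or 0.0683 without the sulfate-free A or B array at 2 h, 0.10 without the replete A array at 2 h, and 0.358 or 0.0872 without the untreated A or B array.

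The PUB23 signals then declined. They were 264 and 156 in replete and 285 and 224 in sulfate-free medium at 4 h, and 209 and 220.0 in replete and 244 and 146 in sulfate-free medium at 8 h. At 12 h they were 153 and 187 in replete and 183 and 162 in sulfate-free medium, and at 24 h 146 and 144 in replete and 185 and 150.1 in sulfate-free medium. From 12 h on no array was above the higher untreated one.

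PUB24, the remaining U-box ligase, did not pass the test at 2 h. Its untreated signals were 53.1 and 45.0, and at 2 h the replete arrays gave 54.4 and 41.2 and the sulfate-free arrays 57.0 and 48.6. The arrays at 2 h lay on both sides of the untreated ones, and the log2 difference was 0.03 ± 0.19 (SE), with a 95% interval from -0.37 to 0.42 (adjusted p = 0.967). At 12 h the signal was at its lowest, 27.2 and 37.4 in replete and 27.7 and 27.6 in sulfate-free medium, all below both untreated arrays. That difference of -0.56 ± 0.19 had an adjusted p of 0.0608, just above the threshold, and it crossed the threshold when any 1 of the 4 arrays at 4 h was left out (adjusted p from 0.0447 to 0.0494). The green tissue markers RCA, the activase of Rubisco, and LHCB4.1, a light-harvesting protein, fell at the same time, with differences of -1.47 ± 0.22 (SE, adjusted p = 0.000312) and -1.17 ± 0.23 (adjusted p = 0.00286) from untreated roots. Their part in the PUB24 values was not tested.

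STZ, the zinc-finger repressor, was the most variable of the genes between arrays of one group. The untreated arrays themselves gave 85.0 and 173. At 2 h it read 104 and 172 in replete and 143 and 267 in sulfate-free medium, at 4 h 234 and 86.0 in replete and 257 and 160.4 in sulfate-free medium, and at 8 h 212 and 196 in replete and 198 and 152 in sulfate-free medium. Only 1 of the 4 arrays at 2 h was above both untreated arrays, and the difference of 0.38 ± 0.46 (SE, adjusted p = 0.744) was within the spread between arrays.

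After 8 h the STZ signal was below that of every 8 h array, except on the replete B array at 12 h. It was 52.1 and 208 in replete and 57.5 and 39.1 in sulfate-free medium at 12 h, and 90.0 and 133 in replete and 99.6 and 45.9 in sulfate-free medium at 24 h. At 24 h 3 of the 4 arrays were still above the lower untreated array. The step from 8 to 12 h was -1.26 ± 0.37 (SE, adjusted p = 0.195), the only difference among the 6 tested genes in that step with an unadjusted p below 0.05. In that step 1462 of all 13648 tested probe sets had such a p. The replete B array at 12 h, at 208, stood with the arrays of 8 h. The summed signal of the green tissue markers RCA and LHCB4.1 ran from 181 to 244 at 8 h and from 124 to 164 at 12 h, and its part in the STZ values was not tested.

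**Figure D2:**
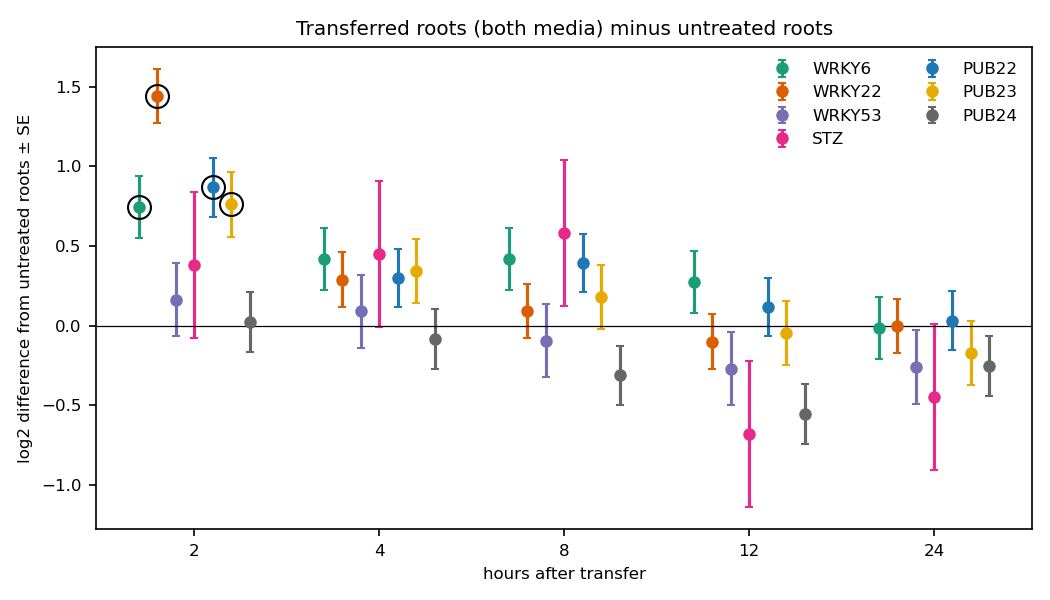
Log2 difference from untreated roots, averaged over both media, for each gene at 2, 4, 8, 12 and 24 h after transfer. Points are estimates with their standard errors, rings mark an adjusted p below 0.05, and WRKY53 comes from the fit without the filter. Rings appear only at 2 h, on WRKY22 at 1.44, PUB22 at 0.87, PUB23 at 0.76 and WRKY6 at 0.75.

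After 2 h limma called 0 of the 6 tested genes against untreated roots at 4, 8, 12 or 24 h. The share of all tested probe sets called in either direction came to 4.17% for the 4 h comparison, 7.2% for 8 h, 12.6% for 12 h and 0.476% for 24 h. An unadjusted p below 0.05 was found for 1 gene at 4 h (WRKY6), 2 at 8 h (WRKY6 and PUB22), 1 at 12 h (PUB24) and 0 at 24 h. The median log2 difference of the 6 genes went from 0.32 at 4 h and 0.29 at 8 h to -0.07 at 12 h and -0.09 at 24 h, with medians over all probe sets between -0.02 and 0.02. These comparisons share the untreated arrays, and the root samples hold many cell types, so fewer cells of a type and less RNA per cell cannot be told apart.

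Because only 2 untreated arrays exist, the transferred arrays were also compared with each other, which leaves the untreated arrays out of the difference. The untreated arrays still entered the shared estimate of the spread. This comparison of 24 h with 2 h was added once the levels had been seen. Time on the medium and hour of sampling cannot be told apart in it. WRKY22, PUB23, PUB22 and WRKY6 were lower at 24 h, 4 of the 6 tested genes, where 5.85% of all probe sets were lower. The differences were -1.44 ± 0.14 for WRKY22 (SE, adjusted p = 3.22e-06), -0.93 ± 0.17 for PUB23 (adjusted p = 0.00122), -0.84 ± 0.15 for PUB22 (adjusted p = 0.00139) and -0.76 ± 0.16 for WRKY6 (adjusted p = 0.00436), and all 4 kept their call when any single array was left out. STZ at -0.83 ± 0.37 (adjusted p = 0.176) and PUB24 at -0.28 ± 0.15 (adjusted p = 0.278) did not pass, nor did WRKY53 at -0.42 ± 0.19 without the filter (adjusted p = 0.213). The median over the 6 genes was -0.83, beside 0.03 over all probe sets. As at 2 h, the count and median only describe genes that were chosen with earlier results of these data known. Between neighbouring later times limma called 0 of the 6 genes, with 2.12% of all probe sets called from 4 to 8 h, 0.63% from 8 to 12 h and 6.67% from 12 to 24 h. The number of the 6 genes with an unadjusted p below 0.05 was 0, 1 and 0 in these steps. Among all 13648 tested probe sets the numbers were 2010, 1462 and 2863.

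The rise of WRKY22 at 2 h passed the test in both media, and no tested gene differed past the threshold between the media. In replete medium alone 1 of the 6 tested genes rose at 2 h (WRKY22), where 2.45% of all probe sets rose. In sulfate-free medium alone 3 rose (WRKY22, PUB22 and PUB23), where 3.03% rose. Passing the threshold in one medium and not in the other shows no difference between them, and that difference was tested directly at each time.

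For sulfate-free minus replete medium limma called 0 of the 6 genes at every time, and an unadjusted p below 0.05 was found for 0 of them. The shares of all probe sets called came to 0% for 2 h and 0% for 4 h, 0.00733% for 8 h, 0.125% for 12 h and 0.359% for 24 h. Over the mean of the 5 times the test also called 0 of the 6 genes, beside 0.476% of all probe sets, and the F-test that the 5 differences are unequal called 0 of them, beside 0.0806%. The smallest adjusted p of any of the 6 genes in these tests was 0.998.

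The intervals show which differences the arrays could still hide. Averaged over the 5 times, sulfate-free minus replete medium was 0.08 for WRKY6 (95% interval -0.13 to 0.30), -0.13 for WRKY22 (-0.31 to 0.06), 0.09 for PUB22 (-0.11 to 0.29), 0.12 for PUB23 (-0.11 to 0.34) and 0.04 for PUB24 (-0.17 to 0.24). For STZ the value was -0.17 with a wider interval of -0.67 to 0.33. At 2 h alone WRKY22 differed by -0.11 between the media (-0.53 to 0.31) and PUB22 by 0.20 (-0.25 to 0.65). WRKY53 at 8 h had the lowest unadjusted p of the 7 genes, 0.029, for a difference of -0.64 in the fit without the filter (adjusted p = 0.67), between dim signals of 15.5 and 8.18 in sulfate-free and 33.3 and 16.9 in replete medium.

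**Figure D3:**
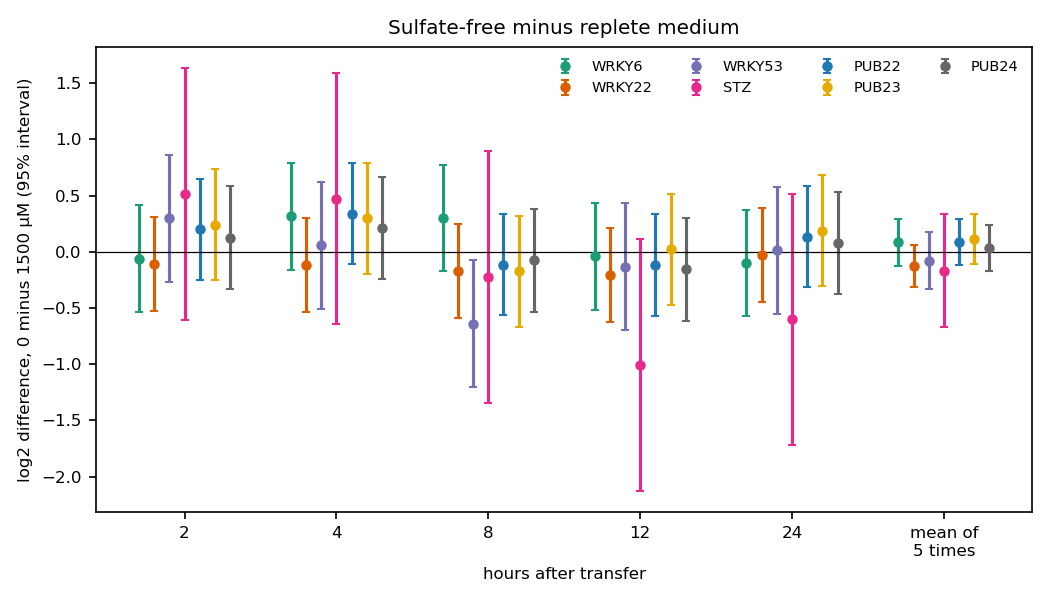
Log2 difference between sulfate-free (0 uM) and replete (1500 uM) medium for each gene at each time and for the mean of the 5 times, with 95% intervals. WRKY53 comes from the fit without the filter. All intervals cover 0 apart from that of WRKY53 at 8 h, whose adjusted p was 0.67, and the intervals of STZ are the widest, reaching -2.12 at 12 h.

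Arrays of one group differed for these genes more at some times than at others. At 4 h the A array was above the B array for 7 of the 7 genes in both media, with a median log2 difference of 0.49 in replete and 0.46 in sulfate-free medium, while the median over all probe sets was 0.00 in both. In sulfate-free medium at 2 h the B array was higher for 4 genes, STZ by 0.85 and WRKY22 by 0.60 among them. In the replete group of 12 h the B array was higher for 6 of the 7 genes, and for STZ by 1.80. The untreated group also had its B array higher for 6 of the 7 genes, with STZ at -0.94 and a median of -0.06 (A minus B). In sulfate-free medium at 8 h and at 12 h the A array was higher for 6 of the 7 genes. The group means at 4 h average over this shift.

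**Figure D4:**
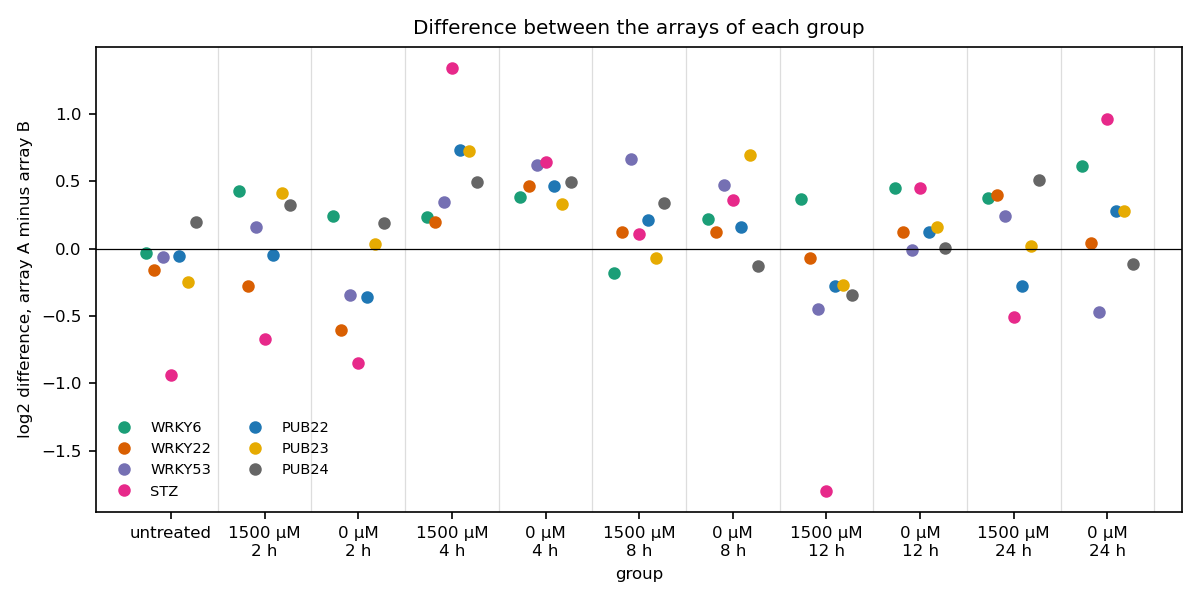
Log2 difference between the A and the B array of each of the 11 groups, for each gene. At 4 h all 7 genes lie above 0 in both media, from 0.20 to 1.34 in replete and from 0.33 to 0.64 in sulfate-free medium, and STZ has the widest range, down to -1.80 in the replete group of 12 h.

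Ordered by their mean over all arrays of a time, WRKY22, PUB22, PUB23, WRKY6, PUB24 and WRKY53 had their highest level at 2 h, and STZ at 8 h. For WRKY22 and PUB22 the arrays of 2 h did not overlap those of the next highest time, 4 h for WRKY22 and 8 h for PUB22. For PUB23, WRKY6, PUB24, WRKY53 and STZ the highest time overlapped the next one. For WRKY6 the arrays of 12 h lay above the untreated ones, the next time in the order, without overlap. The share of all probe sets with such a peak or separation was not counted, so this order only describes these genes.

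Across the 11 group means the profiles of the 2 closest relatives, PUB22 and PUB23, ran together with a Pearson r of 0.951. WRKY22 had an r of 0.875 with PUB22 and 0.869 with PUB23, and WRKY6 had 0.871 with PUB22, 0.839 with PUB23 and 0.737 with WRKY22. STZ had values from 0.433 to 0.618 with the other 5 tested genes, and PUB24 from 0.334 with WRKY6 to 0.669 with PUB23. These are descriptions over 11 points that share their arrays between the genes and, at 4 h, the shift between A and B arrays.

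Other genes followed the same profiles closely. Among 7327 probe sets with a single gene, the nearest to WRKY22 were AT1G19380 (r = 0.978), AT2G34930 (r = 0.978) and SWEET16, a vacuolar sugar transporter (r = 0.977). AT4G36500 was nearest to both PUB22 (r = 0.961) and PUB23 (r = 0.973). After it came AT5G62350 (r = 0.944) and HEMA2, an enzyme of tetrapyrrole synthesis (r = 0.941), for PUB22, and AT4G18950 (r = 0.966) and AT4G19200 (r = 0.962) for PUB23. WRKY6 was nearest to TIL, a lipocalin (r = 0.939), AT5G12010 (r = 0.935) and AT1G80450 (r = 0.930).

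STZ had looser neighbours, AT5G18490 (r = 0.923), AT1G18740 (r = 0.919) and AT4G29780 (r = 0.899), and PUB24 was nearest to AT3G59480 (r = 0.960), AT5G43520 (r = 0.956) and AT3G51330 (r = 0.956). The mean profile of the 6 genes was closest to AT1G15010 (r = 0.982), SRC2, a C2-domain protein responsive to cold (r = 0.977), AT2G31800 (r = 0.964), HEMA2 (r = 0.957) and AT4G19200 (r = 0.950).

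The platform annotation names few relatives of these genes. Of the other WRKY genes 4 were on named probe sets, and 1 of the 3 tested rose at 2 h against untreated roots, WRKY47, by 0.50 (adjusted p = 0.039). WRKY20 at -0.08 and ZAP1, which is WRKY1 and was added to the list once the annotation had been seen, at 0.01 did not pass. The list's median was 0.01. Of the other U-box ligases 6 were present, and 1 of 4 tested rose, PUB43, by 0.51 (adjusted p = 0.0281), with a list median of 0.04. No other zinc-finger gene of the STZ type was found on a named probe set. In the same comparison 3.76% of all tested probe sets rose and their median was -0.03, and lists this small show little about the families.

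Upstream and downstream genes were represented in part only. Of 29 immune and stress signalling genes listed, 2 were on named probe sets, the bacterial elongation factor receptor gene EFR, which was under the filter, and BIK1. BIK1, a cytoplasmic kinase that relays signals from immune receptors, rose by 0.76 at 2 h (adjusted p = 0.000915) and by 0.59 at 4 h (adjusted p = 0.00866), and was lower by -0.72 at 24 h than at 2 h (adjusted p = 0.000142). Of 28 early stress transcription factors 0 were on named probe sets. Of 21 known targets and partners 1 was, the proteasome lid subunit RPN12a, a substrate of PUB22 and PUB23 in the drought response, with -0.16 at 2 h (adjusted p = 0.513).

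3 further lists were drawn up from the genes the annotation does name. Their counts at 2 h stand beside 3.76% of all tested probe sets that rose, with a median of -0.03. Among 15 surface receptor and stress signalling genes, 12 were tested and 1 rose at 2 h (BIK1 again), with a median of 0.12, and SRC2 had 0.93 (adjusted p = 0.0509). Among 10 RING-type ubiquitin ligases, 8 were tested and 1 rose, ATL8, by 1.57 (adjusted p = 0.0327), while the list's median was -0.23. Among 15 stress transcription regulators, 12 were tested and 2 rose, the glutaredoxin GRX480, which interacts with TGA factors, by 1.09 (adjusted p = 0.00278) and BZIP53 by 0.37 (adjusted p = 0.0339), and 1 fell, the jasmonate factor MYC4, at -0.44 (adjusted p = 0.033), with a list median of 0.08.

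Markers of cell types in the root were also followed. The root hair expansins EXPA7 and EXPA18, 2 of 5 listed markers, were measured in every group, and their summed signal ran from 224 to 317 on the untreated arrays and from 223 to 390 at 2 h. No listed marker of endodermis, vascular tissue or root cap was on a named probe set. The green tissue markers RCA and LHCB4.1, 2 of 6 listed, were well above the filter in these root samples. Their summed signal was 371 to 437 on the untreated arrays and 259 to 289 at 2 h, without overlap, although neither gene passed the test (RCA -0.62, adjusted p = 0.118, and LHCB4.1 -0.44, adjusted p = 0.331). RCA fell against untreated roots at 4 h (-0.80, adjusted p = 0.0468) and 8 h (-1.26, adjusted p = 0.00158), both genes had fallen at 12 h, and both rose from 12 to 24 h (RCA 1.26, adjusted p = 0.000235, and LHCB4.1 0.66, adjusted p = 0.0411). AUR1, a kinase of dividing cells and 1 of 4 listed markers, ran from 76.1 to 119 at 2 h and from 136 to 200.0 at 24 h, a difference of 0.67 (adjusted p = 0.00417). GAPC2, 1 of 10 listed stable reference genes, ran from 2074 to 2794 at 2 h, below both untreated arrays at 2895 and 2906. Its difference at 2 h was -0.27 and did not pass the test. The part of green tissue in the 2 h rise and of dividing cells in the decline to 24 h was not tested.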

How the data were processed

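The authors deposited 1 intensity per probe set and array, a linear signal for which the submitters' processing notes name MAS5. Its scaling target and version are not stated. The mean after trimming 2% of probe sets at each end was 100.007 or 100.008 on every array, so the values were taken as already scaled. The 64 array controls among 22810 probe sets did not enter the tests. Signals were put on a log2(signal + 11) scale, 11 being 0.25 of the pooled median of 43.9, rounded, and probe sets at or above the 40th percentile of the mean were kept. All 22 arrays entered 1 limma 3.58.1 fit (R 4.3.3, lmFit, eBayes with an intensity trend) with 11 group means, 11 residual and 5.61 prior degrees of freedom, which was tested on simulated data. Benjamini-Hochberg adjustment ran over all 13648 probe sets kept.

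Of 14016 annotated probe sets, 13513 list 1 gene and 503 several, and those with several were not used to name a gene. Symbols were updated through the RefSeq table of TAIR10.1. No coordinates are given, since the values carry no genome build. The 7 genes and the gene lists were chosen with earlier results of these data known. The text names all 7 genes, from each related list up to 4 rises and 4 falls past the threshold at 2 h, and the 3 nearest profiles of each gene, or 5 of their mean. Named besides these, after their values were seen, were WRKY20, ZAP1, RPN12a, EFR, SRC2 and the markers. Alternatives were pseudocounts of 1 and 32, no filter, quantile normalization, the letter as a factor or as a block with time, no intensity trend, single media, and leaving out each array.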

Additional observations from a re-analysis of the deposited data

How the results depend on the processing

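The count of 4 genes that rose at 2 h against untreated roots became 2 without the filter, where 22746 probe sets were tested and PUB23 (adjusted p = 0.0582) and WRKY6 (adjusted p = 0.0507) missed the threshold, and 1 with replete arrays only. It ranged from 1 to 4 when single arrays were left out, with 2 without the A array of either medium at 2 h and 1 without either untreated array. WRKY22 passed under every alternative run, with an adjusted p from 1.08e-05 to 0.0029. At 12 h the count of 0 became 1 (PUB24) after quantile normalization (adjusted p = 0.0455), and ranged from 0 to 1 over arrays left out. The fall from 2 to 4 h covered 1 to 2 genes over arrays left out. The count of 4 for 24 h against 2 h was 4 in each alternative run. No alternative reversed a called difference, and in the 2 h comparison with untreated roots none moved the median of all probe sets by over 0.1. The shares of all probe sets called under the alternatives are not given here, so these counts only describe the tested genes.

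The letters A and B recur in every group, but the labels do not say that they pair arrays. Deviations of same-letter arrays from their group means correlated from 0.0275 to 0.644 over 55 pairs of groups, with a median of 0.316 and 54 above 0.1. Same-letter arrays thus tended to deviate together, a hint of pairing from the data and not from the design. Since 1 pair was under 0.1 and the labels are silent, the reported fit has no block. With the letter as a replicate block the counts became 1 at 8 h (WRKY6, adjusted p = 0.0364), 1 at 12 h (PUB24, adjusted p = 0.0193) and 2 from 2 to 4 h (WRKY22 and PUB22, the latter at an adjusted p of 0.0259). With time and letter as a random block, at a correlation of 0.400, PUB23 at 2 h had an adjusted p of 0.0556 and 3 genes were called there, while the counts stayed at 0 at 8 h, 0 at 12 h and 1 from 2 to 4 h. How many of all probe sets gained or lost a call in these blocked fits is not given here. The calls of PUB22, PUB23 and WRKY6 at 2 h were each lost without either untreated array, and no measure of signal over background was used here for the dim WRKY53.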
